A study of Mus musculus with 23 samples.

Results

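Bulk tumors grown from B16F10, a mouse melanoma cell line, were compared between the 2 sgRNAs that had been used to edit Nr2f6, sg495 and sg492. The comparison used 4 of the 23 RNA-seq libraries of the series, 2 for each sgRNA, taken into the groups from their labels. Of 47643 genes in the table, 13738 had a mean of at least 1 TPM (the share of transcripts, scaled for gene length and library) over these 4 libraries and were tested. The question was which genes of immune and stromal cells still differ when both tumors come from edited cells.

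Both groups came from cells that had received Cy3-labeled sgRNA together with Cas9 protein and had been sorted for Cy3, and both carry the genotype label NR2F6 KO. The Cy3+ cells are not described as a single clone. They were injected under the skin of the flank of young adult male C57BL/6 mice, which carry the gene themselves, and whole tumors were taken for RNA. The 2 control tumors carry the genotype label WT, and they enter the fit and are given as background. Tumor cells sorted from such tumors (6 libraries, collagenase digestion and stromal cell depletion with magnetic beads) and cultured cells (6 libraries) had the same 3 groups. The labels do not say that the libraries of a group came from separate mice, so p-values measure only the spread between libraries, which may be technical. Values of a pair of libraries are given below in the order replicate 1, replicate 2.

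A tumor grown in an immunocompetent mouse is a mixture. T cells and natural killer (NK) cells kill tumor cells with granzymes and perforin, and activated T and NK cells release IFN-γ, which raises interferon-stimulated genes and antigen presentation by MHC molecules in tumor cells and macrophages alike. Macrophages clear debris and present antigen, fibroblasts lay down collagen, endothelial cells line the vessels, and skin and muscle next to the injection site can be taken along with the tumor. In bulk RNA, fewer cells of a type and less RNA per cell cannot be told apart.

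The targeted gene, Nr2f6, codes for a nuclear receptor that can activate or repress its target genes. It lies at chr8:71374123-71381960 on the minus strand of GRCm38 (GENCODE M21, as for the positions of genes below). Nr2f6 had 25.83 and 25.24 TPM for control, 22.31 and 23.31 TPM for sg492 and 17.22 and 15.76 TPM for sg495. Both sg495 libraries were below both sg492 libraries, with a log2 difference of -0.45 (standard error 0.0895, adjusted p = 0.204). The genes of its chromosome were lower as a whole (described below), and the difference was -0.16 with chromosome 8 centered at 0. TPM count reads from the whole gene, so frameshifting edits need not lower them. The melanocyte genes Tyr, Dct and Mlana, which make or package pigment, were high in every edited tumor. Tyr had 434.31 and 455.5 TPM for sg492 against 445.55 and 402.03 TPM for sg495. Dct had 4755.74 and 4762.07 TPM for sg492 against 4935.06 and 4457.73 TPM for sg495, and Mlana had 1721.47 and 1742.12 TPM for sg492 against 2049.19 and 1999.74 TPM for sg495. Over 17 tested melanocyte genes the median log2 difference (sg495 minus sg492, on log2(TPM + 1), as everywhere below) was -0.02. Within a group, the 2 libraries correlated across genes with r of 0.98 for either sgRNA, yet 793 genes differed by more than 1.5-fold between the sg492 replicates and 894 between the sg495 replicates. Replicate 2 of sg495 held the highest lymphocyte, fibroblast and muscle values, and replicate 2 of sg492 the highest values of several inflammatory genes. Results resting on these libraries are given with and without them.

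With limma and Benjamini-Hochberg adjustment over all tested genes, no gene was called higher in sg495 (0 of 13738, 0%) and none lower (0 of 13738, 0%) at 1.5-fold or more with an adjusted p below 0.05. The smallest adjusted p was 0.0536. At an unadjusted p below 0.05 there were 1405 genes (10.2%), 640 higher and 765 lower. The rest of the comparison is therefore given as values. As a description, both sg495 libraries lay above both sg492 libraries in 2928 genes (21.3%) and below them in 2687 genes (19.6%). With a difference of at least 1.5-fold as well, these were 263 genes (1.91%) and 215 genes (1.57%). The median difference over all tested genes was 0.01, and 52.2% of the genes had a difference above 0. When the spread was estimated from all 18 libraries of the 3 sample types in place of the 6 bulk libraries, 58 genes were called higher (0.422%) and 38 lower (0.277%). That estimate includes sorted and cultured cells, in which many lymphocyte, stromal and keratinocyte genes were at or near 0 and so had almost no spread, and its p-values are given below only for genes that those cells express. A gene with a group mean under 1 TPM passed the filter only through the other group, where it was higher, which fixed its direction. This held for 9 of the 482 tested list members through sg495 and 9 through sg492, and they are named where they weigh on a count. Over the 13212 genes that passed in both groups, 20.9% were apart upward and 19.4% downward, or 1.39% and 1.14% with 1.5-fold.

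**Figure D1:**
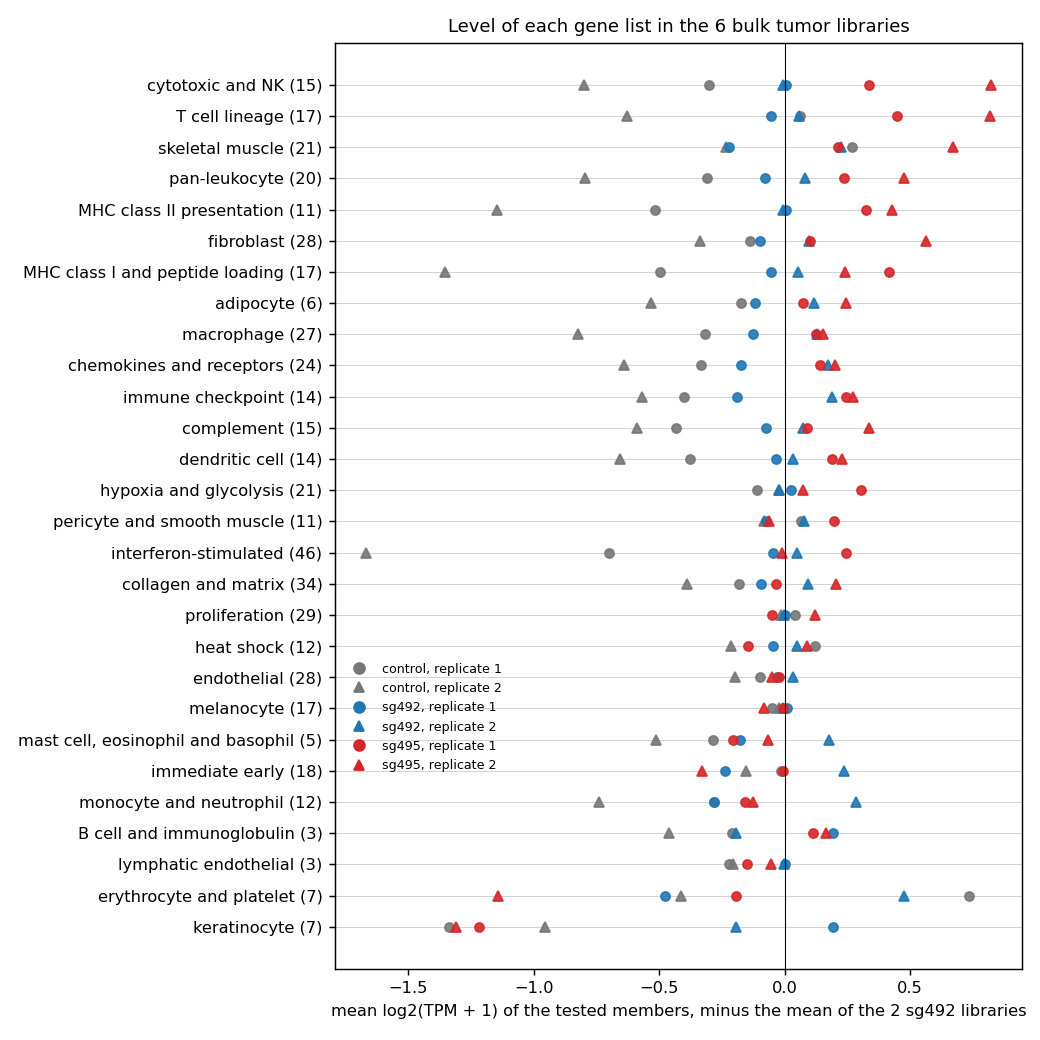
Mean log2(TPM + 1) of the tested genes of each list in each of the 6 bulk tumor libraries, minus the mean of the 2 sg492 libraries (horizontal axis, log2 units), with the number of tested genes after each list's name on the vertical axis. Each point is 1 library, colored by group and shaped by replicate. Both sg495 libraries lie to the right of both sg492 libraries for the T cell and the cytotoxic and NK lists. Of the 15 tested cytotoxic and NK genes, 3 had passed the filter only through sg495. The 4 edited libraries lie close together for interferon-stimulated genes. The keratinocyte list is lowest in sg495 and control, and 4 of its 7 tested genes had passed the filter only through sg492.

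Genes of T cells were higher in sg495 than in sg492 tumors. All 17 tested genes of a list of 26 had a positive difference, with a median of 0.62 against 0.01 over all tested genes. In 14 of them the groups did not overlap, where 21.3% of all genes were apart upward, and 9 of these differed by at least 1.5-fold, where 1.91% of all genes did. No T cell gene was at least 1.5-fold lower without overlap. The summed TPM of the list were 57.1 and 64.2 in the sg492 libraries and 90.1 and 118 in the sg495 libraries, beside 60.9 and 32.9 in the controls. Replicate 1 of the control tumors was therefore at the level of sg492.

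Cd2, an adhesion receptor of T and NK cells (chr3:101275899-101287939), had 1.7 and 0.96 TPM for control, 1.53 and 1.99 TPM for sg492 and 4.88 and 6.26 TPM for sg495. Both sg495 libraries lay more than 2-fold above every other bulk library, with a log2 difference of 1.25 (standard error 0.241, adjusted p = 0.202). The T cell receptor constant gene Trac had 3.81 and 3.57 TPM for sg492 against 6.96 and 10.55 TPM for sg495. Its partner Trbc1, of the beta chain, had 2.14 and 5.22 TPM for sg492 against 6.77 and 9.63 TPM for sg495. Their groups did not overlap, and the differences were 1.03 and 1.04. Trbc1 and Trbc2 are close copies between which RSEM divides reads, so neither is certain alone. Cd27, a costimulatory receptor, had 1.09 and 0.99 TPM for sg492 against 1.77 and 4.19 TPM for sg495. Zap70, the kinase that relays the T cell receptor signal, had 1.08 and 0.92 TPM for sg492 against 1.98 and 2.67 TPM for sg495.

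The first 3 genes of the list, Cd3e, Cd8a and Cd4, differed less than Cd2, Trac and Trbc1. Cd3e, a chain of the receptor complex, had 2.19 and 0.55 TPM for control, 1.26 and 1.26 TPM for sg492 and 1.79 and 3.35 TPM for sg495, so that control replicate 1 was above sg495 replicate 1. Cd8a, the coreceptor of cytotoxic T cells, had 2.57 and 0.51 TPM for control, 2.06 and 2.05 TPM for sg492 and 2.48 and 4.59 TPM for sg495. Cd4, the coreceptor of helper T cells, had 1.28 and 0.4 TPM for control, 0.78 and 1.55 TPM for sg492 and 1.76 and 1.48 TPM for sg495. The sg492 and sg495 libraries overlapped for Cd4 and were apart for Cd3e and Cd8a, with differences of 0.62 for Cd3e, 0.53 for Cd8a and 0.30 for Cd4. Another 9 genes of the list, among them Foxp3, the master regulator of regulatory T cells, were under the expression filter. Foxp3 had 0.14 and 0.38 TPM for sg492 against 0.68 and 0.43 TPM for sg495. Without sg495 replicate 2 the median of the list was 0.40, and without sg495 replicate 1 it was 0.88.

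Genes of cytotoxic granules and NK cells showed the same order. Of 15 tested genes (20 listed), Ncr1, Klrb1c and Gzmk had passed the filter only through sg495. Of the other 12, 11 were higher in sg495, 9 without overlap (20.9% of all genes that passed in both groups) and 5 of these by at least 1.5-fold (1.39% of those genes), with a median of 0.57, or 0.64 over all 15. Gzma, a granule protease, had 1.74 and 2.46 TPM for control, 3.12 and 2.98 TPM for sg492 and 5.89 and 12.1 TPM for sg495. The 2 sg495 libraries were the highest of the 6, and replicate 2 was about 2-fold above replicate 1, with a log2 difference of 1.23 (standard error 0.315, adjusted p = 0.28). Ncr1, the NK cell receptor NKp46, had 0.14 and 0.15 TPM for control, 0.57 and 0.4 TPM for sg492 and 1.35 and 1.81 TPM for sg495. Klrb1c, the NK1.1 antigen, had 0.41 and 0.41 TPM for control, 0.78 and 0.37 TPM for sg492 and 1.73 and 1.4 TPM for sg495. In both genes the sg495 libraries were the highest, and the filter had fixed their direction against sg492. Gzmk had 0.18 and 0.19 TPM for sg492 against 0.68 and 3.12 TPM for sg495, a difference carried by 1 library. Gzmb, a granzyme of activated killer cells, had 10.56 and 11.15 TPM for sg492 against 11.4 and 24.32 TPM for sg495, with sg495 replicate 1 next to the sg492 libraries. Prf1, which codes for perforin, had 2.32 and 2.42 TPM for sg492 against 3.13 and 4.91 TPM for sg495. Ifng itself was under the filter, with 0.34 and 0.18 TPM for control, 1.14 and 0.7 TPM for sg492 and 1.11 and 0.93 TPM for sg495, and its edited groups overlapped. Without sg495 replicate 2 the median of the 15 genes was 0.30.

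**Figure D2:**
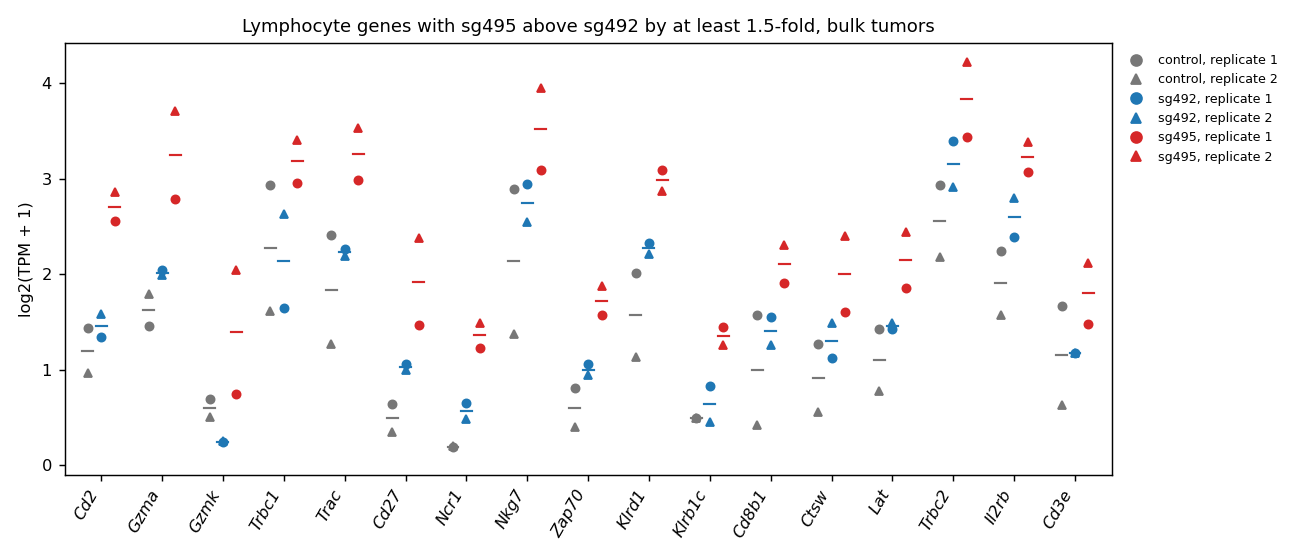
Log2(TPM + 1) (vertical axis) of the 17 T cell, cytotoxic and NK genes in which both sg495 libraries were above both sg492 libraries by at least 1.5-fold (horizontal axis), in the 6 bulk tumor libraries. Each point is 1 library, colored by group and shaped by replicate, and each short line is the mean of 2. Replicate 2 of sg495 is the highest library for most of these genes. Control replicate 1 lies above the sg492 libraries for some of them, such as Cd3e. Ncr1, Klrb1c and Gzmk had passed the filter only through sg495.

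Checkpoint and costimulatory genes did not differ as 1 group. Of 14 tested genes 12 were higher in sg495, with a median of 0.20. Among them 5 were without overlap (against 21.3% of all genes) and 3 of the 5 by at least 1.5-fold (against 1.91%). Ctla4, 1 of the 3, had passed the filter only through sg495. Pdcd1, the receptor PD-1 of activated T cells, had 1.3 and 0.48 TPM for control, 2.12 and 2.94 TPM for sg492 and 2.78 and 2.5 TPM for sg495. Its ligand Cd274, or PD-L1, had 7.24 and 3.71 TPM for control, 11.17 and 12.86 TPM for sg492 and 15.05 and 13.27 TPM for sg495. The differences between the sgRNAs were 0.05 and 0.22, and all 4 edited libraries were above both controls. The 3 genes that stood apart by at least 1.5-fold were Ctla4, an inhibitory receptor of regulatory and activated T cells, Tnfrsf9, the costimulatory receptor 4-1BB, and Icosl, the ligand of ICOS. Ctla4 had 0.8 and 0.89 TPM for sg492 against 2.71 and 1.78 TPM for sg495. Tnfrsf9 had 16.19 and 18.56 TPM for control, 21.02 and 21.3 TPM for sg492 and 34.2 and 34.32 TPM for sg495, with a log2 difference of 0.67 (standard error 0.0946, adjusted p = 0.153). Its replicates nearly coincided in either group, but it was also measured in tumor cells (24.04 and 26.58 TPM for control, 39.46 and 19.53 TPM under the label sg492 and 43.57 and 72.26 TPM for sg495 in sorted cells). Icosl had 2.51 and 2.88 TPM for sg492 against 4.54 and 4.81 TPM for sg495. Without sg492 replicate 1 the median of the list was 0.02.

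B cells were barely detected. Of 23 genes listed 3 were tested. Ms4a1, the B cell surface protein CD20, had at most 0.03 TPM in the 4 edited libraries. Ighm, the heavy chain of IgM, had 7.13 and 4.18 TPM for sg492 against 8.97 and 12.43 TPM for sg495 and was the gene of the list with groups apart by over 1.5-fold.

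Genes shared by all leukocytes were higher as well, by less than the lymphocyte genes. The pan-leukocyte list had 18 of 20 genes higher in sg495 and a median of 0.41. Of these, 15 were without overlap (against 21.3% of all genes) and 3 of the 15 by at least 1.5-fold (against 1.91%). Ptprc, the common leukocyte antigen CD45, had 13.79 and 15.98 TPM for sg492 against 18.16 and 26.21 TPM for sg495. Cd52, a small surface antigen of leukocytes, had 47.96 and 61.62 TPM for sg492 against 75.75 and 83.26 TPM for sg495. Laptm5, a lysosomal protein of leukocytes, had 43.04 and 46.44 TPM for sg492 against 47.29 and 57.67 TPM for sg495. In all 3 genes the groups were apart, and the differences were 0.53, 0.54 and 0.22. Arhgdib, which was lower in sg495 (666.76 and 677.37 TPM for sg492 against 546.86 and 524.19 TPM for sg495), is also expressed by the melanoma line, with 586.12 and 585.19 TPM in cultured sg492 cells and 414.89 and 430 TPM in cultured sg495 cells. The median was 0.25 without sg495 replicate 2 and 0.27 without sg492 replicate 1. On a scale that subtracts the difference of the pan-leukocyte mean (0.355) from each list median, T cell and cytotoxic genes stood at 0.27 and 0.28. Macrophage and dendritic cell genes stood at -0.14 and -0.17 on it. The pan-leukocyte median, 0.41, was larger than that mean difference, so subtracting the median would leave lower values. Without sg495 replicate 2 the unscaled medians were 0.40 for T cell, 0.30 for cytotoxic and 0.25 for pan-leukocyte genes. The cytotoxic value of 0.28 is over all 15 tested genes, with the 3 that had passed the filter only through sg495. Before this scaling the other 12 had a median of 0.57, against 0.64 over all 15.

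Macrophage genes lay between, with 20 of 27 higher, 13 of them without overlap (against 21.3% of all genes). Their median was 0.21, which was 0.12 without sg492 replicate 1. No macrophage gene was at least 1.5-fold higher without overlap, where 1.91% of all genes were. Adgre1, the surface antigen F4/80, had 17.74 and 19.09 TPM for sg492 against 23.18 and 32.38 TPM for sg495. Csf1r, the receptor for the growth factor of macrophages, had 15.8 and 19.89 TPM for sg492 against 23.63 and 24.73 TPM for sg495. C1qa, a chain of complement C1q made by macrophages, had 84.11 and 103.78 TPM for sg492 against 126.49 and 122.71 TPM for sg495. The groups of these 3 genes were apart, with differences of 0.55, 0.43 and 0.41. Arg1, which breaks down arginine and marks suppressive macrophages, ran the other way with 22.76 and 25.23 TPM for sg492 against 17.88 and 13.31 TPM for sg495, both sg495 libraries below both sg492 libraries and a log2 difference of -0.60 (standard error 0.183, adjusted p = 0.338). Dendritic cell genes had a median of 0.19, with 11 of 14 higher. Il12b had passed the filter only through sg495, which fixed its direction. Of the other 13 genes 10 were higher and 3 lower, with a median of 0.225. Flt3, the receptor that dendritic cell precursors need, had 0.86 and 0.45 TPM for sg492 against 1.1 and 1.22 TPM for sg495. Xcr1, a receptor of cross-presenting dendritic cells, had 0.93 and 0.39 TPM for sg492 against 0.75 and 0.94 TPM for sg495. Zbtb46, a dendritic cell transcription factor, had 4.3 and 4.78 TPM for sg492 against 4.82 and 3.69 TPM for sg495. Flt3 was apart by little, and the other two overlapped. Clec9a, another receptor of cross-presenting cells, had 1.54 and 1.04 TPM for sg492 against 2.53 and 2.67 TPM for sg495 and was the gene of the list that was over 1.5-fold higher without overlap.

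Several inflammatory myeloid genes were decided by 1 library. Il1b, the cytokine IL-1β, had 2.53 and 12.32 TPM for sg492 against 3.66 and 3.99 TPM for sg495. Cxcl2, which attracts neutrophils, had 0.78 and 4.27 TPM for sg492 against 0.67 and 0.72 TPM for sg495. Cd14, a coreceptor for bacterial lipopolysaccharide, had 6.13 and 22.14 TPM for sg492 against 6.32 and 5.57 TPM for sg495. Replicate 2 of sg492 was 3-fold or more above the other edited libraries in these genes, and sg492 replicate 1 was close to sg495. S100a8, a calprotectin chain of neutrophils and monocytes, had 2.79 and 5.82 TPM for sg492 against 1.69 and 2.41 TPM for sg495. Both sg492 libraries were above both sg495 libraries in S100a8, though replicate 2 of sg492 was again the highest. The other chain, S100a9, had 0.98 and 5.19 TPM for sg492 against 0.96 and 1.06 TPM for sg495. The monocyte marker Ly6c2 had 30.9 and 34.98 TPM for sg492 against 31.47 and 44.3 TPM for sg495, without the excess in sg492 replicate 2. Over the 12 tested monocyte and neutrophil genes the median was -0.15, and it was 0.23 without sg492 replicate 2. Ly6g, which marks neutrophils, was listed at 0 in all 4 edited libraries. Of the mast cell, eosinophil and basophil genes, Cpa3, a mast cell protease, had 0.89 and 2.09 TPM for sg492 against 1.01 and 0.82 TPM for sg495, while Prg2 and Mcpt8 were listed at 0 in the edited tumors. The median of the 5 tested genes was -0.08. Of these, Cpa3 and Hdc had passed the filter only through sg492, which fixed their direction, and the other 3 had a median of 0.07.

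Interferon-stimulated genes had small differences between the edited tumors. Of 46 tested genes 37 were higher in sg495 but with a median of 0.12, 10 were apart upward (21.7% of 46, against 21.3% of all genes) and 2 downward, and 0 of 46 reached 1.5-fold without overlap in either direction, where 1.91% of all genes did upward and 1.57% downward. No gene of the list had an unadjusted p below 0.05, and without sg495 replicate 1 the median was -0.00387. Irf1, a transcription factor that IFN-γ induces, had 42.16 and 24.64 TPM for control, 71.75 and 79.76 TPM for sg492 and 110.76 and 80.49 TPM for sg495. Irf7, which amplifies type I interferon responses, had 23.55 and 14.47 TPM for control, 29.4 and 35.4 TPM for sg492 and 33.34 and 32.8 TPM for sg495. Irf1 was apart by little between the edited groups, and Irf7 overlapped. Irgm1, an IFN-γ-induced GTPase, had 145.99 and 66.24 TPM for control, 232.24 and 300.46 TPM for sg492 and 348.45 and 220.4 TPM for sg495. Gbp2, a guanylate-binding protein, had 97.19 and 26.6 TPM for control, 220.33 and 192.04 TPM for sg492 and 258.5 and 184.52 TPM for sg495. In both genes the edited groups overlapped, and in all 4 genes the 4 edited libraries were above both controls. The medians against control were 1.25 for sg495 and 1.03 for sg492, which share the same 2 control libraries. The near-identical genes Tgtp1 and Tgtp2 share reads that RSEM divides, so neither is read alone.

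Promoters are shown for 3 genes of these groups, as 250 bases before the start site in RefSeq on GRCm38.p6, 5′ to 3′ on the strand of the gene. Capitals mark the core of the interferon-stimulated response element, GAAANNGAAA, on either strand. The first is Gzma, which differed most among the cytotoxic genes (chr13:113100982-113101231, minus strand). The second is Irgm1, whose edited groups overlapped (chr11:48871421-48871670, minus strand), and the third is Krt14, a keratinocyte gene described below (chr11:100206031-100206280, minus strand).
Gzma: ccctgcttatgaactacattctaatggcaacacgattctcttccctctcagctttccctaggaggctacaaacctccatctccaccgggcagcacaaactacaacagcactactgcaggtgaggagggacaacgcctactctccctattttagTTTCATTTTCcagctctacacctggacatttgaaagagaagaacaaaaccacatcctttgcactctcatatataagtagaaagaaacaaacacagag
Irgm1: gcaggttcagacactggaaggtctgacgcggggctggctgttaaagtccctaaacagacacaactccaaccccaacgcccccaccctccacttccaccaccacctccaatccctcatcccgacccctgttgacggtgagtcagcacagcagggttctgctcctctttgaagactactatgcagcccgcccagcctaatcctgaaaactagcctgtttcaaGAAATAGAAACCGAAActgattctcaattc
Krt14: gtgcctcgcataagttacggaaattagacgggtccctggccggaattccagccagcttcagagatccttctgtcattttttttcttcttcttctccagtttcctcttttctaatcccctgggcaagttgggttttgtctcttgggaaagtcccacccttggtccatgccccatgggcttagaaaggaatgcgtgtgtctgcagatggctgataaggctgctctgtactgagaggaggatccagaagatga
Gzma held 1 core, Irgm1 a pair of overlapping cores, and Krt14 none in this window. In windows that also took in 50 bases after the start site, 63.6% of the 33 promoters matched to interferon-stimulated genes held the core, compared with 3.44% of all 32851 promoters. The shares were 29.4% of 17 for MHC class I, 10% of 20 for the cytotoxic list, 0% of 22 for T cell genes and 0% of 13 for keratinocyte genes. A match is a description of the letters and not a site of binding.

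Antigen presentation genes were higher in sg495 by small amounts. All 17 tested MHC class I and peptide loading genes had a positive difference, 15 without overlap, where 21.3% of all genes were apart upward, with a median of 0.34. H2-K1, a classical class I heavy chain, had 348.89 and 364.61 TPM for sg492 against 460.17 and 418 TPM for sg495. The other classical heavy chain of this strain, H2-D1, had 391.74 and 462.95 TPM for sg492 against 536.88 and 511.01 TPM for sg495. B2m, the light chain, had 1491.45 and 1723.41 TPM for sg492 against 2052.36 and 1819.35 TPM for sg495. The groups of these genes were apart, with differences of 0.30, 0.30 and 0.27. H2-Q7, a nonclassical heavy chain, was the member beyond 1.5-fold, with 17.56 and 19.9 TPM for sg492 against 27.21 and 30.44 TPM for sg495. Class I genes of the H2-Q and H2-T groups are close copies whose reads may be divided unevenly.

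The 11 tested MHC class II genes were higher too, with a median of 0.39, and H2-Oa and H2-Ob had passed the filter only through sg495. Of the other 9, 6 were apart upward (20.9% of all genes that passed in both groups) and 0 by 1.5-fold. H2-Aa, the alpha chain of I-A, had 235.21 and 248.35 TPM for sg492 against 302.8 and 345.53 TPM for sg495. H2-Ab1, the beta chain, had 141.43 and 154.17 TPM for sg492 against 209.33 and 217.71 TPM for sg495. Cd74, the invariant chain, had 371.4 and 431.63 TPM for sg492 against 520.74 and 606.41 TPM for sg495. Their differences were 0.42, 0.53 and 0.49. Relative to the pan-leukocyte genes the class I and class II lists stood at -0.02 and 0.04, so their differences were about as large as that of leukocyte genes in general.

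Several of the same genes differed far more in tumor cells sorted from tumors. There, Cd74 had 2.18 and 1.39 TPM for control, 1.77 and 1.82 TPM under the label sg492 and 92.42 and 92.87 TPM for sg495. H2-Aa had 0.98 and 0.1 TPM for control, 0.83 and 1 TPM under the label sg492 and 53.65 and 53.84 TPM for sg495. Psmb8, a subunit of the immunoproteasome, had 1.22 and 0 TPM for control, 1.57 and 1.08 TPM under the label sg492 and 42.03 and 57.57 TPM for sg495. The 2 sorted sg495 libraries stood apart from the other 4 in these genes. The sg495 minus sg492 medians were 1.64 for interferon-stimulated genes, 2.16 for class I and 2.72 for class II in sorted cells, beside 0.12, 0.34 and 0.39 in bulk tumors. In sorted cells Nr2f6 had 20.32 and 17.73 TPM for control, 19.84 and 25.7 TPM under the label sg492 and 10.6 and 12.18 TPM for sg495, so that the libraries labeled sg492 were not below control.

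The difference of the bulk and the sorted differences was tested in the fit of 18 libraries. It was larger in bulk in 5 genes (0.0364%) and smaller in bulk in 21 genes (0.153%). Among the 21 were Cd74, H2-Aa, H2-Ab1, H2-Eb1, H2-DMa and H2-DMb1 of class II, H2-D1, B2m, H2-Q4, Psmb8 and Psmb9 of class I, Cd274 and C4b. Of the antigen presentation and interferon lists, 6 of 11 class II, 5 of 17 class I and 0 of 46 interferon-stimulated genes passed. The test was of single genes with 2 libraries per group, so it does not decide on the list medians, which were not tested. The keratins Krt5, Krt14 and Krt6a were also among the 21, but they were listed at 0 in all sorted libraries, so that the value repeats the bulk difference. For Cd74 the bulk difference was 4.58 lower than the sorted difference, with a standard error of 0.388 and an adjusted p of 0.000369. For Cd274, which had 7.1 and 5.38 TPM for control, 4.64 and 4.93 TPM under the label sg492 and 24.85 and 19.88 TPM for sg495 in sorted cells, it was 1.79 lower (adjusted p = 0.0438). No T cell or cytotoxic gene was called in this test. Cd2 and Gzma had at most 0.13 and 0 TPM in the 6 sorted libraries.

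**Figure D3:**
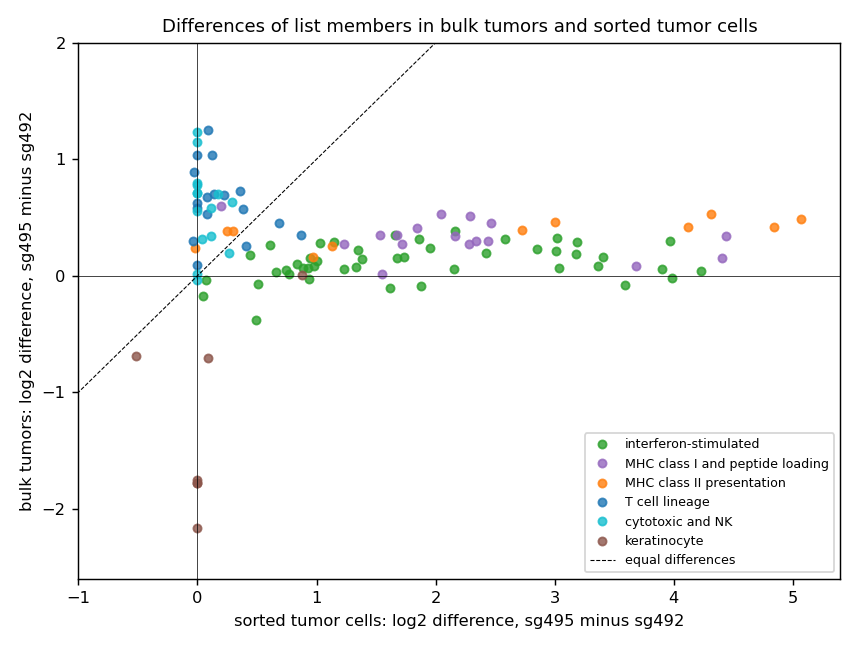
Log2 difference sg495 minus sg492 in sorted tumor cells (horizontal axis) and in bulk tumors (vertical axis), with each point 1 tested gene of the T cell, cytotoxic, interferon-stimulated, MHC and keratinocyte lists, and a dashed line where both are equal. MHC class II genes reach far to the right in sorted cells (median 2.72) at a bulk median of 0.39, while T cell genes lie near 0 in sorted cells (median 0.09) and have a bulk median of 0.62.

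Chemokine genes differed little as a list. The 24 tested chemokines and receptors had a median of 0.21, which was 0.05 without sg492 replicate 1, and 7 were apart upward, where 21.3% of all genes were. Cxcl9, which attracts T cells through CXCR3, had 29.43 and 29.16 TPM for sg492 against 46.73 and 34.85 TPM for sg495. Cxcl10, another ligand of CXCR3, had 114.57 and 141.11 TPM for sg492 against 154.59 and 149.51 TPM for sg495. Ccl5, which T cells and myeloid cells release, had 23.35 and 27.67 TPM for sg492 against 37.82 and 39.99 TPM for sg495. These 3, the first of the list, were apart between the groups. The receptor itself, Cxcr3, had 5.28 and 5.19 TPM for sg492 against 5.84 and 6.75 TPM for sg495 and was apart as well. Another ligand, Cxcl11, was under the filter, with 0.62 and 1.1 TPM for sg492 against 0.74 and 0.92 TPM for sg495 and overlapping groups. Ccl8, a monocyte attractant, had 105.77 and 136.47 TPM for sg492 against 180.3 and 164.16 TPM for sg495. It was apart too, with a difference of 0.51. Cxcr6, a receptor of activated T cells, had 0.75 and 1.25 TPM for sg492 against 1.49 and 3.38 TPM for sg495. Ccl5 and Cxcr6 were over 1.5-fold higher without overlap and Cxcl2, which had passed the filter only through sg492, lower.

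Part of the complement genes was higher in sg495. C4b, a component of the classical pathway (chr17:34728380-34743882), had 17.75 and 16.37 TPM for control, 32.51 and 29.01 TPM for sg492 and 53.11 and 53.83 TPM for sg495. The replicates of either group were within 4 TPM of each other, both edited groups were above control, and sg495 was above sg492 with a log2 difference of 0.78 (standard error 0.0912, adjusted p = 0.15). Its close copy C4a may share its reads. In sorted cells C4b had 7.84 and 3.95 TPM for control, 5.3 and 6.42 TPM under the label sg492 and 39.8 and 38.22 TPM for sg495, again highest with sg495. C3, on which all complement routes converge, had 13.61 and 14.92 TPM for sg492 against 17.67 and 27.27 TPM for sg495. C1s1, a protease of C1, had 10.5 and 12.08 TPM for sg492 against 15.3 and 22.14 TPM for sg495. The C1 inhibitor Serping1 had 24 and 24.55 TPM for sg492 against 30.75 and 45.63 TPM for sg495. All 3 were apart, with replicate 2 of sg495 the highest. Cfb, of the alternative route, had 33.91 and 42.21 TPM for sg492 against 41.38 and 60.48 TPM for sg495, with 1 sg495 library within the sg492 range. Cfd, a protease of the alternative route made by fat cells, was lower with 7.6 and 8.54 TPM for sg492 against 4.6 and 5.3 TPM for sg495. Of 15 tested genes 4 were over 1.5-fold higher without overlap and 1 lower, where 1.91% and 1.57% of all genes were. The median was 0.19, or 0.128 without sg495 replicate 2 and 0.338 without sg495 replicate 1.

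Fibroblast genes were higher in sg495, mostly through replicate 2. Of 28 tested genes 23 were higher, 14 without overlap (against 21.3% of all genes) and 5 of these by 1.5-fold (against 1.91%). The median was 0.39, and 0.12 without sg495 replicate 2. Of the 5, Islr had passed the filter only through sg495. The same library had the highest summed TPM of skeletal muscle genes (485 TPM, against 239 to 335 TPM in the other 3 edited libraries), and the part of neighboring tissue in the fibroblast values was not tested. Pdgfra, the growth factor receptor of fibroblasts, had 2.06 and 2.23 TPM for sg492 against 2.46 and 2.76 TPM for sg495. Dcn, a collagen-binding proteoglycan, had 24.69 and 30.68 TPM for sg492 against 29 and 49.48 TPM for sg495, with sg495 replicate 1 inside the sg492 range. Col1a1, a chain of type I collagen, had 105.72 and 121.42 TPM for sg492 against 126.62 and 207.81 TPM for sg495. Pdgfra and Col1a1 were apart by less than 1.5-fold. Mfap4, a microfibril protein, had 1.3 and 1.16 TPM for sg492 against 2.84 and 3.33 TPM for sg495. Islr, a secreted protein of stromal cells, had 0.57 and 0.88 TPM for sg492 against 1.81 and 2.52 TPM for sg495. Both sg495 libraries were above both sg492 libraries in these 2 genes.

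Over the wider matrix the differences were smaller, a contrast with the fibroblast list that was not tested. Of the 34 tested collagen and matrix genes 24 were higher, 12 without overlap (against 21.3% of all genes), with a median of 0.11. Without overlap, 2 were over 1.5-fold higher and 1 lower, where 1.91% and 1.57% of all genes were. Without sg495 replicate 2, the library that also carried the fibroblast values, the median was 0.00533. Fn1, fibronectin, had 89.83 and 102.52 TPM for sg492 against 79.46 and 95.27 TPM for sg495. Sparc, a collagen-binding matrix protein, had 731.43 and 761.41 TPM for sg492 against 701.44 and 793.8 TPM for sg495. Col6a1, a chain of type VI collagen, had 18.41 and 21.12 TPM for sg492 against 23.38 and 33.58 TPM for sg495. Fn1 and Sparc overlapped, and Col6a1 was apart with a difference of 0.49. Mgp, an inhibitor of calcification, had 29.3 and 23.09 TPM for control, 19.45 and 22.87 TPM for sg492 and 30.26 and 35.84 TPM for sg495, with the sg492 libraries below the control range. Thbs1, an inhibitor of vessel growth, had 19.74 and 54.56 TPM for sg492 against 18.55 and 12.23 TPM for sg495, high in the sg492 library that was also high for Il1b and Cxcl2.

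Endothelial genes had no common direction. Of 28 tested genes 14 were higher and 14 lower, with a median of -0.01. Selp had passed the filter only through sg492, which fixed its direction. Of the other 27 genes 14 were higher and 13 lower, with a median of 0.00691. Pecam1, a junction protein of endothelium, had 19.41 and 20.5 TPM for sg492 against 20.06 and 20.09 TPM for sg495. Cdh5, the endothelial cadherin, had 18.1 and 16.23 TPM for sg492 against 15.97 and 15.3 TPM for sg495. Kdr, the main receptor for VEGF, had 7.01 and 7.77 TPM for sg492 against 6.39 and 8.88 TPM for sg495. Pecam1 and Kdr overlapped, and Cdh5 was apart by less than 1 TPM. Vwf, the adhesive protein stored by endothelium and platelets, was an exception with 13.09 and 15.62 TPM for control, 18.7 and 18.76 TPM for sg492 and 10.67 and 7.71 TPM for sg495. Both sg495 libraries were lower than the other 4, with a log2 difference of -0.97 (standard error 0.166, adjusted p = 0.188). Apln, a peptide of sprouting vessels, had 16.32 and 17.53 TPM for sg492 against 11.59 and 9.29 TPM for sg495 and was also lower. Of the lymphatic genes, the hyaluronan receptor Lyve1 had 3.48 and 3.01 TPM for sg492 against 2.23 and 3.13 TPM for sg495. Prox1, the transcription factor of lymphatic identity, had 1.25 and 1.61 TPM for sg492 against 1.68 and 1.63 TPM for sg495, and the VEGF receptor Flt4 had 2.93 and 2.77 TPM for sg492 against 2.34 and 2.26 TPM for sg495. The median of these 3 genes was -0.21. Of the genes of pericytes and smooth muscle, the pericyte gene Rgs5 had 15.73 and 20.2 TPM for sg492 against 23.14 and 26.59 TPM for sg495. Smooth muscle actin, Acta2, had 29.48 and 26.41 TPM for sg492 against 24.48 and 20.74 TPM for sg495, and smooth muscle myosin, Myh11, had 1.09 and 1.04 TPM for sg492 against 1.45 and 1.34 TPM for sg495. Rgs5 and Myh11 were apart upward and Acta2 downward, and the median of 11 genes was 0.13, or -0.0353 without sg492 replicate 1. None of the tested genes in either list was 1.5-fold apart.

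Skeletal muscle genes were higher in sg495 and had a median of 0.57, with 20 of 21 higher. Of these, 8 were without overlap (38.1%, against 21.3% of all genes) and 6 of the 8 by 1.5-fold (28.6%, against 1.91%). The exception was Neb, the giant filament protein nebulin, with 10.21 and 8.38 TPM for sg492 against 4.64 and 6.29 TPM for sg495, lower by over 1.5-fold without overlap. Acta1, the actin of skeletal muscle, had 51.98 and 80.99 TPM for sg492 against 62.25 and 103.3 TPM for sg495. Ckm, muscle creatine kinase, had 13.02 and 24.25 TPM for sg492 against 21.93 and 33.69 TPM for sg495. Myh4, a fast myosin, had 3.31 and 7.69 TPM for sg492 against 8.64 and 7.5 TPM for sg495. These 3 genes overlapped between the groups, and sg492 replicate 1 was the lowest of the 4 libraries in each. Eno3, the muscle enolase, had 27.74 and 28.31 TPM for control, 28.18 and 27.87 TPM for sg492 and 45.4 and 47.34 TPM for sg495 and was called in the fit of 18 libraries (adjusted p = 0.00408). The median of the list was 0.25 without sg492 replicate 1 and 0.24 without sg495 replicate 2. Of the fat cell genes, Adipoq, the hormone adiponectin, had 0.77 and 1.16 TPM for sg492 against 1.5 and 1.28 TPM for sg495. Plin1, a lipid droplet protein, had 1.05 and 1.26 TPM for sg492 against 0.95 and 0.97 TPM for sg495. Lep, the hormone leptin, had 0.54 and 0.27 TPM for sg492 against 0.81 and 0.21 TPM for sg495. The median of 6 tested fat cell genes was 0.22. Adipoq had passed the filter only through sg495 and Plin1 only through sg492, and the other 4 genes had a median of 0.262.

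Several keratins ran the other way, at low levels. Of 19 keratinocyte genes listed 7 were tested, and 4 of these, Krt5, Krt14, Krt17 and Krt6a, passed the filter only through the sg492 libraries, so that their lower values in sg495 were fixed by the filter and their count and median are not read. Over the whole list, with no filter, the median difference was -0.60. Krt5, a keratin of basal epidermal cells, had 0 and 0.19 TPM for control, 4.02 and 1.89 TPM for sg492 and 0.23 and 0 TPM for sg495. Its partner Krt14 had 0 and 1.04 TPM for control, 4.31 and 4.03 TPM for sg492 and 0.33 and 0 TPM for sg495. Krt6a, a keratin of wounded and follicular epidermis, had 0 and 0.14 TPM for control, 2.3 and 2.44 TPM for sg492 and 0 and 0 TPM for sg495. The sg492 libraries stood above control and sg495 alike, and Krt6a was listed at 0 in both sg495 libraries, so no fold is given. Krt10, of the upper epidermis, was under the filter with 0.03 and 1.32 TPM for control, 0.07 and 0.36 TPM for sg492 and 0.24 and 0.07 TPM for sg495. Sfn, an inhibitor of the cell cycle, had 6.57 and 4.55 TPM for sg492 against 2.72 and 3.27 TPM for sg495. Lgals7, a galectin of stratified epithelia, had 15.54 and 12.82 TPM for sg492 against 9.18 and 7.63 TPM for sg495. Of the 3 genes that passed in both groups, these 2 were lower in sg495 without overlap, and the other had a difference of 0.00643. Krt25, a keratin of the hair follicle, was at 23.96 TPM in sg492 replicate 1 and at 0.03 TPM in replicate 2. The sum of the keratinocyte list was 19.48 and 27.55 TPM in control, 48.4 and 36.2 TPM in sg492 and 17.1 and 15.9 TPM in sg495. In sorted cells, where Krt5, Krt14 and Krt6a were listed at 0, the list still summed to 20.76 and 25.46 TPM under the label sg492. It summed to 21.32 and 17.45 TPM for sg495, so other members were measured there. The part of tumor cells in the bulk values of those members was not tested.

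**Figure D4:**
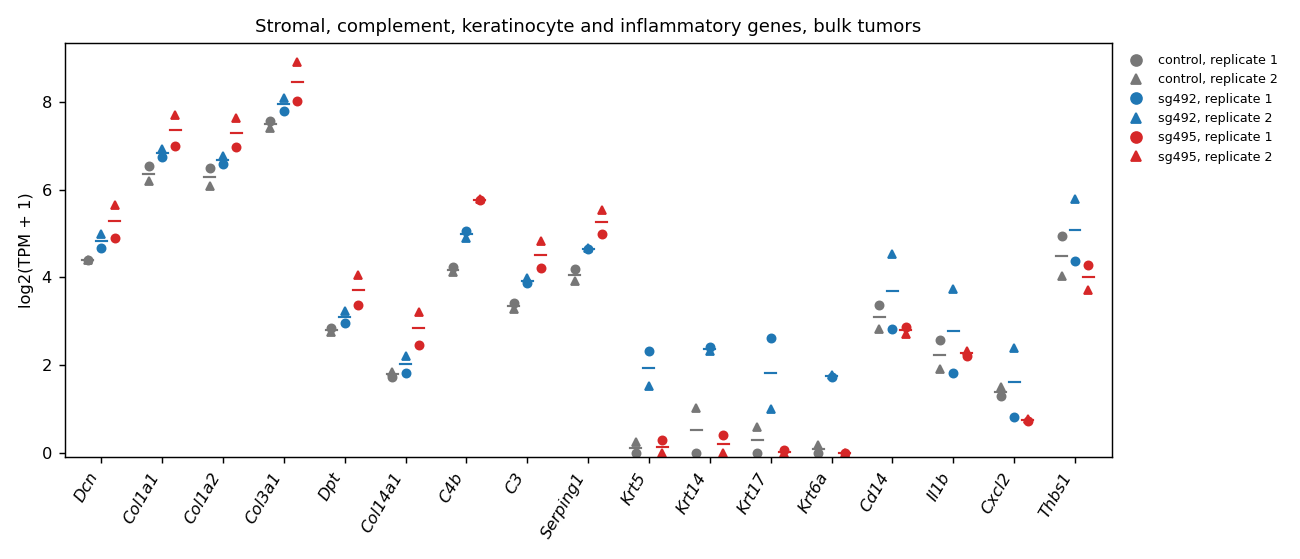
Log2(TPM + 1) (vertical axis) of fibroblast, complement, keratinocyte and inflammatory genes (horizontal axis) in the 6 bulk tumor libraries, with each point 1 library, colored by group and shaped by replicate, and each short line the mean of 2. Replicate 2 of sg495 stands above the other libraries for the collagens, both sg495 libraries are highest for C4b, both sg492 libraries are highest for the keratins, and sg492 replicate 2 stands alone for Cd14, Il1b, Cxcl2 and Thbs1.

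Hemoglobin varied by library and not by group. The alpha globin gene Hba-a1 had 203.96 and 83.19 TPM for control, 66.06 and 187.06 TPM for sg492 and 93.75 and 41.17 TPM for sg495. The beta globin gene Hbb-bs had 661.3 and 227.48 TPM for control, 216.68 and 513.24 TPM for sg492 and 289.62 and 126.65 TPM for sg495. The edited groups overlapped in both genes, and control replicate 1 was the highest. Ppbp, a platelet chemokine, had 1.35 and 1.03 TPM for sg492 against 0.35 and 0.13 TPM for sg495. The 7 tested erythrocyte and platelet genes had a median of -0.80, which was -0.18 without sg492 replicate 2. The alpha globin copies Hba-a1 and Hba-a2 share reads.

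Programs of dividing and stressed cells had small medians. Proliferation genes had a median of 0.03 over 29 genes. Mki67, the cycling marker Ki-67, had 82.11 and 88.76 TPM for sg492 against 78.69 and 94.18 TPM for sg495. Top2a, a topoisomerase, had 298.25 and 292.92 TPM for sg492 against 300.72 and 314.87 TPM for sg495, and the mitotic cyclin Ccnb1 had 140.08 and 141.92 TPM for sg492 against 125.66 and 142.44 TPM for sg495. Top2a was apart by little, and the other two overlapped. Heat shock genes, which code for chaperones, had a median of 0.01, or -9.85e-05 after median-of-ratios scaling. Hspa1a had 1.59 and 1.59 TPM for sg492 against 1.12 and 1.7 TPM for sg495, its close copy Hspa1b had 7.63 and 9.67 TPM for sg492 against 6.9 and 6.57 TPM for sg495, and the cochaperone Dnajb1 had 36.51 and 42.5 TPM for sg492 against 30.48 and 32.73 TPM for sg495. Immediate early genes, which code for transcription factors that answer stimuli within minutes, had a median of -0.12, with 14 of 18 lower. Of these, 4 were without overlap (against 19.6% of all genes) and 2 of the 4, Ier2 and Ctgf, by 1.5-fold (against 1.57%). The median ran from -0.38 without sg492 replicate 1 to 0.107 without sg492 replicate 2. Fos had 13.5 and 27.44 TPM for sg492 against 21.72 and 15.7 TPM for sg495. Egr1 had 8.01 and 9.78 TPM for sg492 against 8.67 and 6.52 TPM for sg495, and Jun had 16.5 and 19.56 TPM for sg492 against 17.87 and 15.38 TPM for sg495. All 3 overlapped. Of 21 genes of hypoxia and glycolysis 17 were higher, 10 without overlap (21.3% of all genes), with a median of 0.15, which was 0.0406 without sg495 replicate 1, and the vessel growth factor Vegfa had 123.49 and 104.13 TPM for sg492 against 145.87 and 135.88 TPM for sg495. Car9, a carbonic anhydrase of hypoxic cells, had 142.53 and 155.38 TPM for sg492 against 244.98 and 164.92 TPM for sg495, and Slc2a1, a glucose transporter, had 90.36 and 93.08 TPM for sg492 against 119.87 and 94.76 TPM for sg495. These 3 were apart by small amounts. Adm, the vasodilator peptide adrenomedullin, was the exception with 15.52 and 22.41 TPM for control, 18.24 and 14.32 TPM for sg492 and 37.94 and 34.72 TPM for sg495. Both sg495 libraries were the highest of the 6, with a log2 difference of 1.12 (standard error 0.191, adjusted p = 0.188) and an adjusted p of 0.00955 in the fit of 18 libraries.

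Outside the lists, the largest differences among protein-coding genes of at least 5 TPM with groups apart included several that replicated closely. Mbp, a myelin protein, had 51.76 and 46.66 TPM for control, 56.5 and 40.38 TPM for sg492 and 123.22 and 149.39 TPM for sg495. Npnt, a matrix ligand of integrins, had 4.74 and 5.79 TPM for control, 4.76 and 3.81 TPM for sg492 and 10.54 and 10.87 TPM for sg495. Both sg495 libraries were about 2-fold or more above the other 4 in Mbp and highest in Npnt. Enah, an actin regulator, had 38.4 and 33.85 TPM for control, 40.44 and 31.02 TPM for sg492 and 78.24 and 67.07 TPM for sg495. Sfrp2, a secreted Wnt modulator of fibroblasts, had 3.1 and 4.42 TPM for control, 3.72 and 4.11 TPM for sg492 and 7.48 and 11.53 TPM for sg495. Ms4a4b, a membrane protein of T cells, had 5.2 and 5.86 TPM for sg492 against 10.5 and 16.04 TPM for sg495, with both sg495 libraries above both sg492 libraries. Cilp, Art3, Clvs1 and Epb41l4b were higher by 0.94 to 1.08. Gm2004, at 13.14 and 0.03 TPM for sg492 and 16.32 and 17.93 TPM for sg495, differed mainly through 1 sg492 library. On the lower side, Hs3st1, a heparan sulfate sulfotransferase, had 21.89 and 16.83 TPM for control, 22.7 and 19.38 TPM for sg492 and 7.04 and 2.47 TPM for sg495. Both sg495 libraries were below the other 4. Slc7a11, the cystine transporter, had 11.9 and 14.1 TPM for sg492 against 8.36 and 3.97 TPM for sg495. Adh7, Thsd7a, Cpne4, Hoxb9, Fgf21 and Ppp1r15a were lower by 0.91 to 1.33. Differences from control for these genes were in sg495 more than in sg492: for Mbp the log2 difference from control was 1.45 in sg495 and -0.04 in sg492, for Hs3st1 -1.94 and 0.12, against the same controls.

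Chromosome 8, which carries Nr2f6, was lower in sg495 along its whole length. The median of its 718 tested genes was -0.29, with 85.5% below 0. The medians of the other chromosomes lay between -0.01 and 0.04. Of the genes lower by 1.5-fold without overlap, 32 of 215 were on chromosome 8, and of the higher ones 3 of 263. The chromosome held 718 of all 13738 tested genes. In windows of 10 Mb along the chromosome the medians were between -0.15 and -0.33. Against control, the chromosome was at -0.25 in sg495 and at 0.04 in sg492. The difference was of the same size in sorted cells (-0.34) and cultured cells (-0.35).

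**Figure D5:**
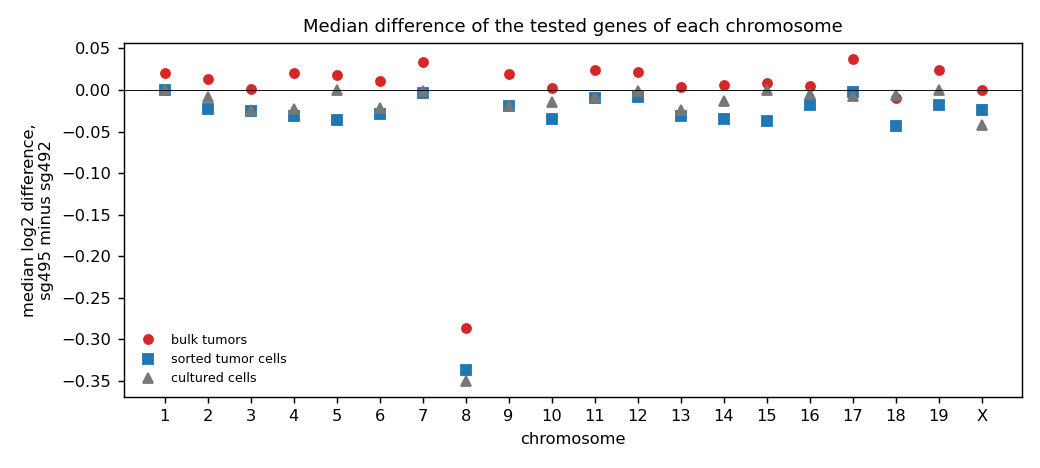
Median log2 difference sg495 minus sg492 (vertical axis) of the tested genes of each chromosome (horizontal axis) in the 3 sample types (bulk, sorted, cultured), with 1 point for each sample type. Chromosome 8 lies at -0.29 in bulk tumors, -0.34 in sorted cells and -0.35 in cultured cells, and in bulk tumors the other chromosomes lie between -0.01 and 0.04.

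Against cultured cells, where no host cells are present, the bulk difference was larger in 74 genes (0.539%) and smaller in 27 (0.197%). Among the larger ones were the complement genes C1s1, C1ra and C2, the matrix gene Fbln1, Eno3 of the skeletal muscle list, and Adm, Car9 and Ier3. In cultured cells the skeletal muscle list still summed to 32.82 and 35.87 TPM for sg492 and 30.56 and 33.64 TPM for sg495. The part of tumor cells in the bulk value of Eno3 was not tested. For C1s1 the cultured libraries had 4.11 and 4.28 TPM for sg492 and 1.34 and 1.36 TPM for sg495, so that the order of the sgRNAs was the opposite of that in tumors. Car9 had 10.18 and 8.91 TPM for sg492 and 4.41 and 2.57 TPM for sg495 in culture, and Adm had 12.38 and 13.67 and 4.25 and 3.81 TPM. Cd2 among the larger ones and Krt5, Krt14 and Krt6a among the smaller ones were at 0 or at most 0.06 TPM in every cultured library, so that their values repeat the bulk difference, which was not called.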

How the data were processed

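Poly(A) RNA of 4 bulk tumors (2 sg492, 2 sg495) was compared, with the 2 control tumors in the fit and 6 sorted and 6 cultured libraries for interactions. The authors trimmed single-end reads with Cutadapt 2.3, aligned them with STAR 2.7.0d to mm10 with Ensembl annotation, quantified genes with RSEM 1.3.1 and deposited TPM, which were used as given. TPM keep no depth, so the depth of each library is unknown and no counting interval was derived. The authors tested RSEM's estimated counts with DESeq2, and neither that test nor those counts were used here. The bulk libraries had 13330 to 13899 genes of at least 1 TPM, and mitochondrial genes took 4.73% to 6.7% of the TPM.

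Values were log2(TPM + 1), so that differences of low genes are understated. Genes that averaged 1 TPM or more in the 4 edited libraries entered a 2-sided limma fit (version 3.58.1, R 4.3.3, lmFit and trended eBayes, 1 mean per group), with Benjamini-Hochberg adjustment and calls at an adjusted p below 0.05 and at least 1.5-fold. An exact permutation of 2 against 2 libraries cannot give a 2-sided p below 0.333. Interaction contrasts used a fit of 18 libraries. The procedure was tested on simulated data. Lists and chromosomes are described by counts and medians, without a test.

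Named genes were Nr2f6, called genes, members of the lists with the first 3 of each list always given, and, outside the lists, the 10 largest differences in each direction among protein-coding genes of at least 5 TPM with groups apart. The comparison and the lists were chosen with earlier results of these data known. Some genes that the rule names are not reported here. Of the 599 list entries 596 matched a gene of the table. Positions came from GENCODE M21 on GRCm38, the build of mm10 but another annotation release, which held 99.1% of the 47643 genes. Promoters came from RefSeq on GRCm38.p6. Other pseudocounts, filters and scalings, a replicate block, other fits and each library left out in turn were tried. Plots used Python 3.11.15 with matplotlib 3.10.9.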

Additional observations from a re-analysis of the deposited data

Results flagged for a closer look

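These genes were picked out because the sg495 minus sg492 difference in bulk tumors differed, in a test of the difference itself (limma interaction, 18 libraries, Benjamini-Hochberg adjusted p below 0.05 and at least 1.5-fold), from that in sorted or cultured cells. Values are log2 differences of differences on the log2(TPM + 1) scale, each with 2 libraries per group.

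Bulk minus sorted, the class II genes had -4.58 for Cd74, -4.42 for H2-Aa, -3.78 for H2-Ab1, -3.7 for H2-Eb1, -2.54 for H2-DMb1 and -2.33 for H2-DMa. The class I genes had -4.24 for Psmb9, -4.1 for Psmb8, -2.14 for H2-D1, -2.01 for B2m and -1.78 for H2-Q4. Cd274 had -1.79 and C4b -1.77. These genes were higher in sg495 in both sample types, and by more in sorted cells. The libraries labeled sg492 among the sorted cells did not have less Nr2f6 than control, and the part of this in the values was not tested. The keratins had -2.16 for Krt14, -1.78 for Krt5 and -1.75 for Krt6a, but they were listed at 0 in all 6 sorted libraries, so these values repeat the bulk difference, and all 3 genes had passed the filter only through sg492.

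Bulk minus cultured, the differences were larger in bulk by 1.25 for Cd2, 1.81 for C1s1, 0.93 for C2, 0.91 for C1ra, 0.63 for Fbln1 and 0.66 for Eno3. They were larger by 2.6 for Adm, 1.69 for Car9, 1.6 for Ier3, 1.93 for Npnt and 1.07 for Clvs1. They were smaller in bulk for Krt14 (-2.21), Krt5 (-1.78) and Krt6a (-1.75). Cd2 and the keratins had at most 0.06 TPM in every cultured library, so their values, too, repeat the bulk difference, which was not called.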

How the results depend on the processing

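Depth is unknown from TPM, so the precision of low values could not be stated, and with 2 libraries per group a single library decided many values. Over the alternatives other than the scale relative to leukocyte genes, 18 of the 28 list medians kept their sign and 10 did not. Of 355 recomputed counts and medians, 292 stayed close to the reported value, and of 1807 recomputed gene differences 1693 kept their direction and their side of the threshold, 83 lost a call, 30 gained one and 1 reversed, which was Mcm5 at 0.075 with chromosome 8 centered. The cause was not tested for the other changes.

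Genes called were 58 higher and 38 lower in the fit of 18 libraries, and 1 higher and 5 lower without an expression trend in eBayes. With 1 library left out, 0 to 3 were called higher and 0 to 4 lower. With a replicate block 0 were called in either direction, and 1216 had an unadjusted p below 0.05. The numbers do not pair the samples, since deviations of same-numbered sg492 and sg495 libraries correlated with 0.01. For bulk minus sorted, the block gave 3 larger, quantile normalization 33 smaller, and leaving out 1 library 3 to 24 larger and 8 to 53 smaller. For bulk minus cultured, the block gave 34 larger and 13 smaller, and leaving out 1 library 47 to 89 and 13 to 54.

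Relative to the pan-leukocyte genes, which were 0.36 higher in sg495, the medians were 0.27 for T cell, 0.28 for cytotoxic, -0.15 for checkpoint, -0.53 for B cell, -0.14 for macrophage, -0.50 for monocyte and neutrophil, -0.17 for dendritic cell, -0.43 for mast cell, -0.24 for interferon-stimulated, -0.0169 for class I, 0.0354 for class II, -0.15 for chemokine and -0.16 for complement genes. Each is a list median minus the difference of the pan-leukocyte mean. Those medians are over all tested members, including any that had passed the filter only through sg495 or only through sg492. With a pseudocount of 0.1 the medians were -0.27 for B cell, -0.28 for lymphatic and -3.98 for keratinocyte genes. Without a filter they were 0.0431 for B cell, -0.013 for lymphatic, 0.0253 for fat cell and -0.60 for keratinocyte genes. At a mean of at least 5 TPM they were 0.83 for B cell and -0.69 for keratinocyte genes. Lymphatic genes had -0.25 after quantile normalization.

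With each of the 4 edited libraries left out in turn, the medians ran from 0.248 to 0.573 for pan-leukocyte, 0.398 to 0.877 for T cell, 0.304 to 0.794 for cytotoxic and NK, 0.0219 to 0.34 for checkpoint, -0.283 to 0.0304 for B cell, 0.121 to 0.306 for macrophage, 0.0696 to 0.378 for dendritic cell, -0.348 to 0.193 for mast cell, -0.00387 to 0.282 for interferon-stimulated, 0.228 to 0.373 for class I, -0.252 to -0.0374 for lymphatic, -1.75 to -0.972 for keratinocyte and -0.0707 to 0.112 for proliferation genes. The pan-leukocyte, T cell, cytotoxic and fibroblast medians were lowest without sg495 replicate 2.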
